A study of Mus musculus with 8 samples.

Results

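Messenger RNA of 7 genes that lengthen or desaturate fatty acids was followed in the livers of fasted mice: the elongases Elovl1, Elovl2, Elovl3 and Elovl5 and the desaturases Fads1, Fads2 and Fads3. These were chosen by gene name, and all 7 were found among the 45706 genes listed in the count table and among the 14629 genes with enough counts to be tested. Livers came from 8 female C57BL/6J mice, aged 4 months and fasted overnight after regular chow. Of these, 4 were wild type (WT) and 4 were SA/SA, homozygous for the S155A knock-in of perilipin 5 (PLIN5), which replaces a serine with alanine. The allele is carried in the whole body under the endogenous Plin5 promoter, so its action within the liver and from other tissues cannot be told apart. PLIN5 is a lipid droplet protein, and the replaced serine is a site phosphorylated by protein kinase A. The comparison addresses whether loss of this site alters hepatic gene expression during fasting. Poly(A) RNA of whole liver was sequenced, with 1 library per mouse.

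Elongases of the ELOVL family catalyse the first and slowest step of fatty acid elongation in the endoplasmic reticulum, in which an acyl-CoA is condensed with malonyl-CoA. ELOVL2 and ELOVL5 act on polyunsaturated chains, and ELOVL1 and ELOVL3 act on saturated and monounsaturated ones. FADS2 and FADS1 insert double bonds in turn on the route from dietary linoleic and alpha-linolenic acid to arachidonic and docosahexaenoic acid. Their genes are known targets of SREBP1c and of PPARa, the receptor that drives the fasting response of the liver.

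The 8 libraries held between 39709830 and 54540612 counts, and the counts do not separate the edited from the reference codon of Plin5. Expression is given as CPM, counts scaled to a common library size after TMM normalization. Hepatocyte markers summed to between 91421 and 131907 CPM in every liver, while adipocyte and skeletal muscle markers summed to under 1 CPM. The label calls the cells hepatocytes, but markers of sinusoidal endothelial, Kupffer and stellate cells were present as well. Lymphocyte markers summed to 1254 CPM in SA/SA liver 3 and to no more than 28.3 CPM in the other 7 livers. Each label also carries a number, from 89 to 123 in replicates 1 and 4 of both genotypes (the low series) and from 830 to 869 in replicates 2 and 3 (the high series). What the number records is not given in the sources used here. In bulk tissue, fewer cells of a type and less RNA per cell cannot be told apart.

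The genes lie on 4 chromosomes of GRCm38 in GENCODE release M21. Fads3 (chr19:10041569-10060110, forward strand), Fads2 (chr19:10062765-10101746, reverse strand) and Fads1 (chr19:10182888-10196877, forward strand) sit together within 155309 bases. Elovl3 is on the same chromosome (chr19:46131897-46135694, forward strand), Elovl1 on chromosome 4 (chr4:118428093-118432953, forward strand), Elovl2 on chromosome 13 (chr13:41182381-41220405, reverse strand) and Elovl5 on chromosome 9 (chr9:77917364-77984519, forward strand). The 3' ends of Elovl1 and Elovl3 overlap Cdc20 and Pitx3 on the opposite strand, and Mir6993 lies within Fads1. The strand setting of the counting was not given in the sources used here.

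Promoter sequences are shown for Elovl1, Elovl2 and Elovl5, because the fitted difference between high-number and low-number livers was positive for Elovl1 and negative for Elovl2 and Elovl5. Each is the 250 bases before a RefSeq start on GRCm38.p6, read 5′ to 3′ on the strand of the gene, with motif matches in capitals. The motifs searched on both strands were the sterol response element TCACNCCAC, the CCAAT box, the E-box CACGTG and the Sp1 box GGGCGG, a set chosen after the values were seen. The Elovl1 window is chr4:118427843-118428092, the Elovl2 window chr13:41220404-41220653 and the Elovl5 window chr9:77917115-77917364.
Elovl1: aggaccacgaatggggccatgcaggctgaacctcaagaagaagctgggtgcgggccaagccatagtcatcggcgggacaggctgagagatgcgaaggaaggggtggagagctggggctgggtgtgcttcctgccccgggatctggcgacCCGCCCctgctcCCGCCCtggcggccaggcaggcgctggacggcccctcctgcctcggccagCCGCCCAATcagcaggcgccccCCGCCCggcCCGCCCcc
Elovl2: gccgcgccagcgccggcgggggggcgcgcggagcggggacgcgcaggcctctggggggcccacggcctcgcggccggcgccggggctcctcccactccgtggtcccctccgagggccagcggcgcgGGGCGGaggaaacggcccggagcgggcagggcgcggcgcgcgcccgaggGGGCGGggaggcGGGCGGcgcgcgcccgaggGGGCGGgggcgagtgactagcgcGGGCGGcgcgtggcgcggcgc
Elovl5: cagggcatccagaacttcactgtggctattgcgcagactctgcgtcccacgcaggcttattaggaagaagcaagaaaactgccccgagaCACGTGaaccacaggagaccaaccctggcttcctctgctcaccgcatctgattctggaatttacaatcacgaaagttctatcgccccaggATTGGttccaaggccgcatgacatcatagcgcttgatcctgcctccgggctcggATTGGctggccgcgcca
The Elovl5 window held one CACGTG, found in 6.02% of 32851 windows of the same length, and a pair of CCAAT boxes on the other strand. The Elovl1 and Elovl2 windows each held 5 Sp1 boxes, and in Elovl1 one of these overlaps the CCAAT box. The share of all windows with any CCAAT box was 33.8%, and with any Sp1 box 32.7%. Shares of windows with several boxes were not computed. The sterol response element, in 1.05% of all windows, had no match in the 7 windows of the 5 genes with an entry (Elovl1, Elovl2, Elovl5, Fads2 and Fads3). GC content was 87.2% in the Elovl2 window, 72.0% in the Elovl1 window and 55.6% in the Elovl5 window, against a median of 52.4%. These matches are descriptions of the letters and say nothing of factor binding.

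Per kilobase of the longest annotated transcript, Elovl5 had the highest level, followed by Elovl2, Fads1, Fads2, Elovl1, Elovl3 and Fads3, in both genotypes. Over 8 livers, Elovl5 averaged 278 CPM per kb and Fads3 0.695 CPM per kb. Elovl5 was above Elovl2 in 8 of 8 livers, by 1.56-fold to 2.34-fold. Elovl2 was above Fads1 in 6 of 8 livers and Fads1 above Fads2 in 7 of 8, so these neighbours in the order were not separate. Fads2 was at least 5.07 times the level per kb of Elovl1 in every liver. The 4 most abundant transcripts are those of the polyunsaturated route. The division by transcript length is approximate where several isoforms are used.

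**Figure D1:**
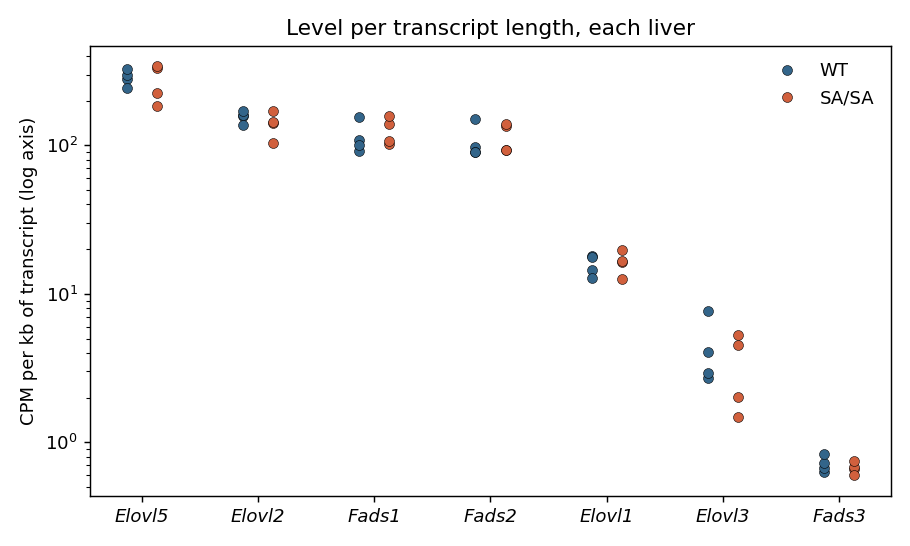
Level of each gene in CPM per kb of its longest annotated transcript (log axis), with 1 point per liver for 4 WT and 4 SA/SA livers. Elovl5, Elovl2, Fads1 and Fads2 form the upper group, and the 8 Fads3 points lie lowest, around a mean of 0.695 CPM per kb.

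None of the 7 genes was called between SA/SA and WT livers by the quasi-likelihood test of edgeR with Benjamini-Hochberg adjustment, against 0% of all genes tested, nor by DESeq2, which called 0.0410% of all genes. At an unadjusted p under 0.05 the count was 0 of 7, against 3.40% of all genes, and the 4 WT and 4 SA/SA livers overlapped for every gene, where 2.30% of all genes did not overlap. Fitted values were higher in SA/SA livers for Elovl1, Fads1 and Fads2 and lower for the other 4, and in 6 of 7 the difference was within 1 SE of 0. The median log2 difference was -0.083, against -0.0050 over all genes tested. Together the 7 genes took between 2053 and 2260 CPM in WT livers and between 1935 and 2299 CPM in SA/SA livers.

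Elovl5, which extends the first products of FADS2, had 779, 679, 825 and 906 CPM in WT livers 1 to 4. SA/SA livers 1 to 4 had 922, 623, 516 and 947 CPM. The SA/SA livers lay both above and below the whole WT range. Means were 797 ± 94.7 CPM (SD, n = 4) in WT and 752 ± 215 CPM (SD, n = 4) in SA/SA, a log2 difference of -0.083 (SE 0.20, edgeR adjusted p = 0.996). The 95% interval ran from 0.697-fold to 1.28-fold.

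Elovl2 makes the longest polyunsaturated chains on the way to docosahexaenoic acid. Its level was 609, 527, 613 and 653 CPM in the WT livers and 545, 551, 397 and 656 CPM in the SA/SA livers. SA/SA liver 3 was the lowest of all 8, and the other SA/SA livers lay close to the WT range. The log2 difference was -0.16 (SE 0.15, edgeR adjusted p = 0.993), with an interval of 0.709-fold to 1.13-fold, and it was -0.040 without SA/SA liver 3.

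Fads2 catalyses the first desaturation of the route. WT livers had 306, 474, 285 and 284 CPM and SA/SA livers 295, 424, 441 and 293 CPM. WT liver 2 and SA/SA livers 2 and 3 were high and the other 5 lay between 284 and 306 CPM. The log2 difference was 0.11 (SE 0.21, edgeR adjusted p = 0.996), with an interval of 0.784-fold to 1.48-fold. Without SA/SA liver 3 the log2 difference was 0.0017, and without WT liver 2 it was 0.32.

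Fads1, which introduces the last double bond of arachidonic acid, followed the same livers. It was measured at 317, 540.0, 375 and 347 CPM in WT and at 351, 486, 545 and 369.8 CPM in SA/SA. The same livers, WT 2 and SA/SA 2 and 3, were highest, and the genotypes overlapped. Its log2 difference was 0.15 (SE 0.20, edgeR adjusted p = 0.993), with a 95% interval of -0.29 to 0.59 on the log2 scale. Without SA/SA liver 3 the difference was 0.029, and without WT liver 2 it was 0.34.

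Elovl1, an elongase of saturated and monounsaturated very long chains, was measured at 26.4, 32.4, 32.3 and 23.1 CPM in WT and 29.9, 35.9, 30.2 and 22.7 CPM in SA/SA. Replicate 4 was the lowest liver of each genotype. The log2 difference was 0.057 (SE 0.16, edgeR adjusted p = 0.996), and its interval was 0.814-fold to 1.33-fold.

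Elovl3 varied most, with a coefficient of variation of 52.1% over 8 livers. WT livers had 14.3, 5.08, 7.66 and 5.52 CPM and SA/SA livers 9.88, 3.78, 2.77 and 8.46 CPM. WT liver 1 was the highest and SA/SA liver 3 the lowest, a 5.17-fold range. The log2 difference of -0.38 (SE 0.44, edgeR adjusted p = 0.993) had the widest interval of the 7, from 0.386-fold to 1.52-fold, and it became 0.040 without WT liver 1.

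Fads3, which acts on sphingoid bases, was the least abundant of the 7, with 2.33, 2.49, 2.69 and 3.06 CPM in WT and 2.45, 2.50, 2.77 and 2.21 CPM in SA/SA. It varied least, with a coefficient of variation of 10.5%, and each library held at least 105 of its counts. The log2 difference was -0.091 (SE 0.19, edgeR adjusted p = 0.996).

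**Figure D2:**
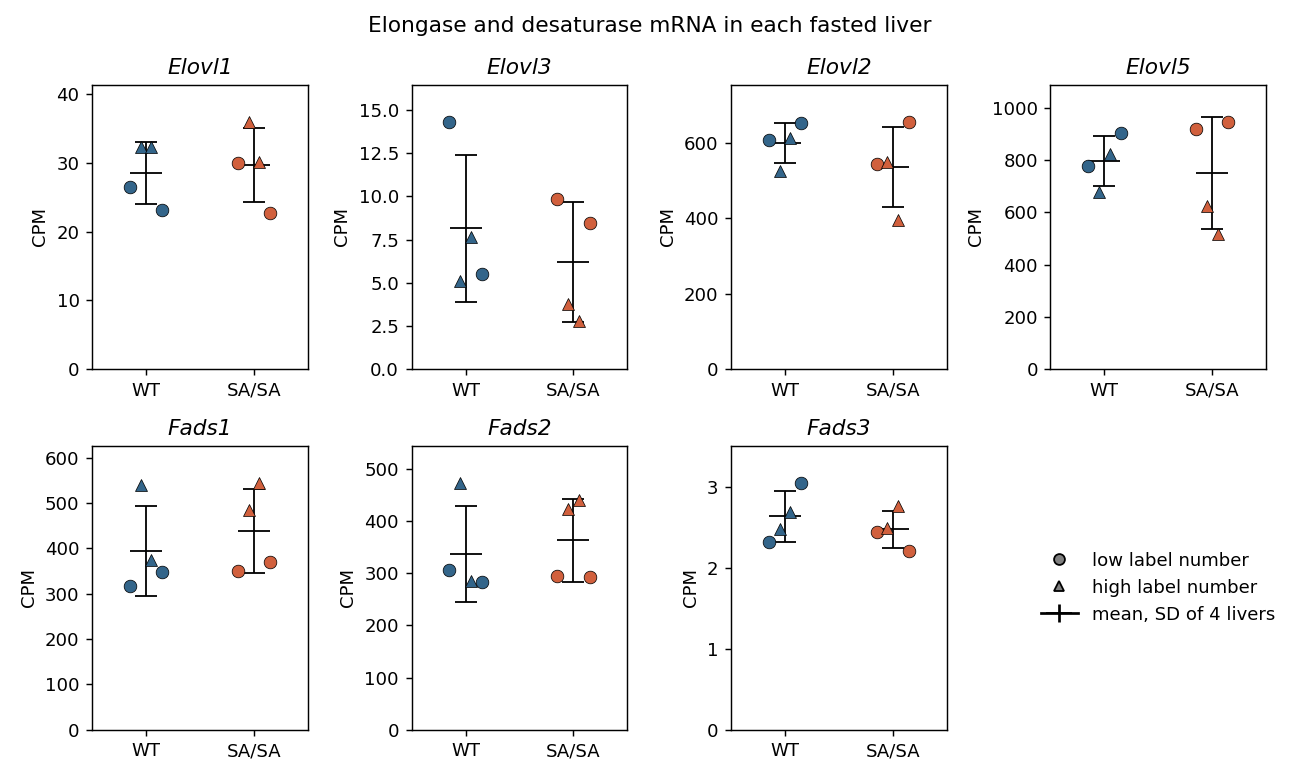
CPM of each gene (vertical axis from 0) in WT and SA/SA livers, with 1 point per liver, circles for the low and triangles for the high label numbers, and bars for the mean and SD of 4 livers. The genotypes overlap in every panel, and Elovl1 and Fads1 have all 4 triangles above all 4 circles.

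The fitted difference between the label-number series was larger in size than that between genotypes for 6 of 7 genes, all but Fads3. By edgeR, 5 of 7 had an unadjusted p under 0.05 between the series, against 12.8% of all genes, and none passed adjustment (0% of all genes). The series fit also held genotype, while the main genotype fit did not hold series, so their SEs and counts come from unlike models. With series in the genotype fit, 0 of 7 had an unadjusted p under 0.05 for genotype (621 of 14629 genes did). Elovl3 was then at -0.52 and Fads1 at 0.15. Fads1 (486 against 346 CPM), Fads2 (406 against 294 CPM) and Elovl1 (32.7 against 25.5 CPM) had higher means in high-number livers, and Elovl3 (4.82 against 9.54 CPM) and Elovl5 (661 against 888 CPM) had lower means. Only Fads1 and Elovl1 had no overlap between the series, 2 of 7 against 6.85% of all genes. For Elovl1 the nearest livers were SA/SA 1 (low series, 29.9 CPM) and SA/SA 3 (high series, 30.2 CPM). Their order rests on the TMM scaling. By share of all counts, SA/SA liver 1 (1614 of 51223555) was above SA/SA liver 3 (1143 of 39709830).

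Fads1 ranged from 317 to 369.8 CPM in the low-number and from 375 to 545 CPM in the high-number livers, a log2 difference of 0.49 (SE 0.12, edgeR adjusted p = 0.200). Fads2 gave 0.46 (SE 0.15, edgeR adjusted p = 0.272), with WT liver 3 at the low-number level. Elovl1 gave 0.36 (SE 0.11, edgeR adjusted p = 0.269). On the other side were Elovl5 at -0.44 (SE 0.14, edgeR adjusted p = 0.273) and Elovl3 at -1.05 (SE 0.32, edgeR adjusted p = 0.251). Elovl2 gave -0.24 (SE 0.13, edgeR adjusted p = 0.473) and Fads3 0.060 (SE 0.20, edgeR adjusted p = 0.932). In two-sided exact permutation tests of log2 CPM, p was 0.0286 for Fads1 and Elovl1, the smallest that 4 livers against 4 allow, 0.0571 for Elovl3 and Elovl5, and 0.114 for Fads2. The value for Elovl1 rests on the TMM scaling that keeps its series apart. DESeq2 called Fads1 (adjusted p = 0.0188) and Elovl3 (adjusted p = 0.0372), where edgeR called neither, and it called 408 genes in all, 2.79% of those tested.

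Markers of other cells differed between the same livers. SA/SA liver 3, the one with 1254 CPM of lymphocyte markers, was the lowest for Elovl2, Elovl3 and Elovl5 and the highest for Fads1. Without it the series differences were -0.34 for Elovl5, -0.89 for Elovl3, -0.15 for Elovl2 and 0.44 for Fads1 on the log2 scale. Endothelial markers summed to 134 to 185 CPM in the low-number and 111 to 128 CPM in the high-number livers, and the part of lymphocyte and endothelial RNA in the result was not tested. WT liver 2, high for Fads1 and Fads2, had the highest cholangiocyte markers (85.3 CPM, next highest 51.2 CPM) and pancreatic acinar markers (29.1 CPM, next highest 6.43 CPM). It had the lowest Kupffer markers (175.9 CPM, next lowest 191.6 CPM). SA/SA liver 2, also high for Fads1 and Fads2, had the highest Kupffer markers (380 CPM) and the lowest stellate markers (129 CPM, next lowest 224 CPM). Without WT liver 2 the series difference was 0.38 for Fads1 and 0.32 for Fads2, and the part of these cells was not tested.

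**Figure D3:**
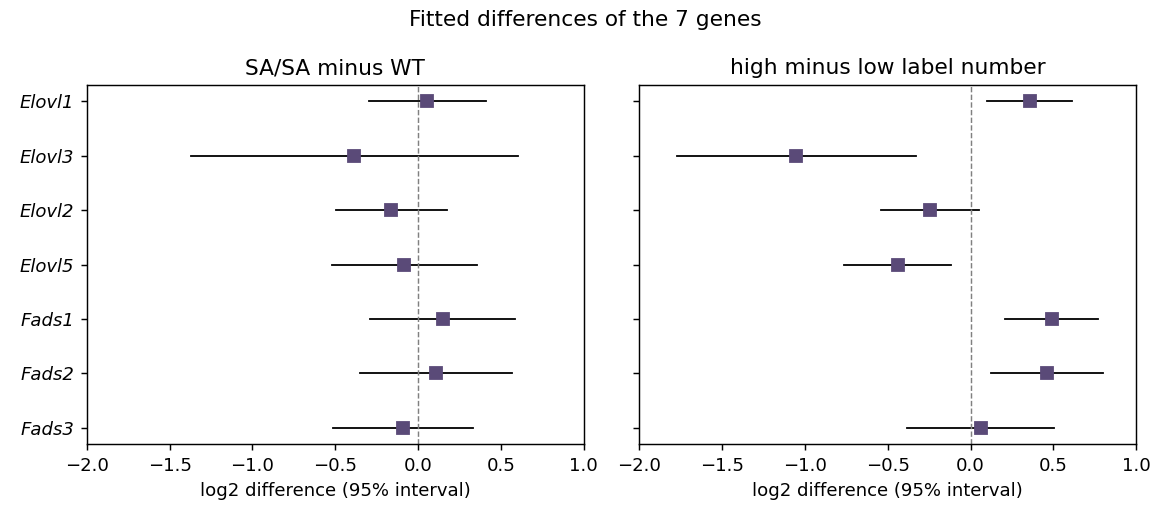
Fitted log2 differences (squares) with 95% intervals (lines) for the 7 genes, SA/SA minus WT on the left and high minus low label number on the right, 4 livers against 4. Every genotype interval spans 0, and 5 of the series intervals lie to one side of it. The series fit also held genotype and the genotype fit did not hold series, so interval widths are not comparable between the panels.

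Elovl5 was the 1 gene of the 7 with an unadjusted p under 0.05 for a genotype difference that depended on the series. Among low-number livers, both SA/SA values (922 and 947 CPM) lay above both WT values (779 and 906 CPM), a mean log2 difference of 0.15. Among high-number livers, both SA/SA values (623 and 516 CPM) lay below both WT values (679 and 825 CPM), a mean log2 difference of -0.40. The interaction was -0.55 (SE 0.22, edgeR adjusted p = 0.415), which did not pass adjustment (0% of all genes did), and 11.1% of all genes had an unadjusted p under 0.05. Opposite, non-overlapping orders in the series occurred in 9.48% of all genes. The other 6 genes had an unadjusted interaction p above 0.05.

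**Figure D4:**
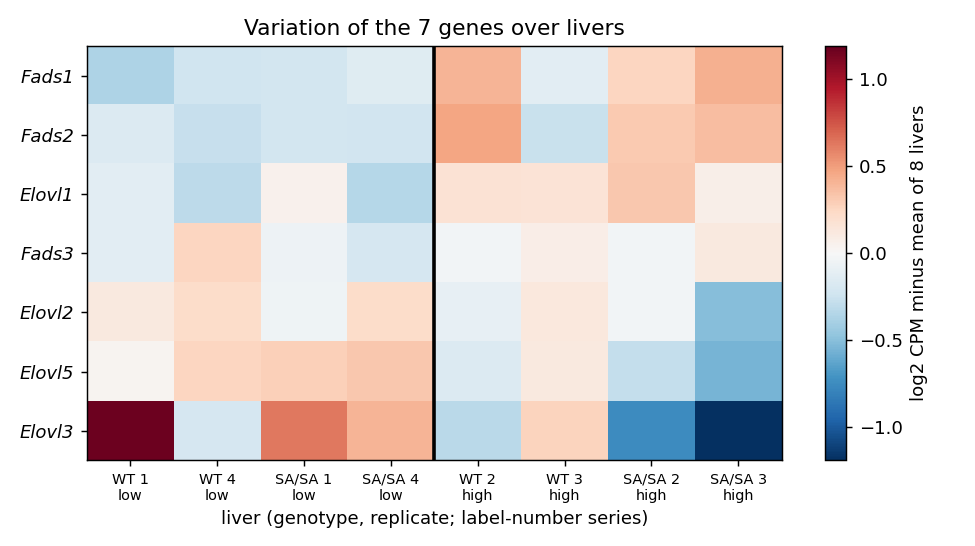
Log2 CPM of each gene minus its mean over 8 livers (colour), with livers in columns ordered by label-number series and genotype. Fads1 and Fads2 are above their mean in WT liver 2 and SA/SA livers 2 and 3, where Elovl5 and Elovl3 are below theirs.

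Ratios between enzymes of one route were compared within each liver by two-sided exact permutation tests, whose smallest p with 4 livers against 4 is 0.0286. The Fads2 over Fads1 ratio ranged from 0.760 to 0.966 and differed by -0.041 on the log2 scale between SA/SA and WT (exact p = 0.600). The Elovl2 over Elovl5 ratio ranged from 0.591 to 0.884 and differed by -0.057 (exact p = 0.657). The Elovl3 over Elovl1 ratio differed by -0.51 (exact p = 0.429). Adjusted over the 3 ratios, each p was 0.657. Between the series the Elovl3 over Elovl1 ratio gave -1.37 on the log2 scale, high minus low (exact p = 0.0286, the smallest possible, adjusted p = 0.0857), with the nearest livers at 0.237 and 0.239.

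Relations between the genes were computed over the 8 livers. Fads1 and Fads2 had a Pearson r of 0.94 (exact permutation p = 0.0099, adjusted p = 0.052 over 21 pairs) and a Spearman rho of 0.64 (exact permutation p = 0.0962). Without the 2 livers farthest from the median of Fads1, r was 0.84, and with each series centred it was 0.88. Elovl2 and Elovl5 had an r of 0.85 (exact permutation p = 0.00796, adjusted p = 0.052) and a rho of 0.71 (exact permutation p = 0.0576), and r was 0.53 without the 2 farthest livers and 0.78 within series. Elovl5 and Fads2 had an r of -0.87 (exact permutation p = 0.00977, adjusted p = 0.052) and a rho of -0.74 (exact permutation p = 0.0458). That r was -0.84 without the 2 farthest livers and -0.71 within series. Of 21 pairs, 8 had an unadjusted p under 0.05 for r and 0 passed adjustment for r or rho. The share among pairs of all genes tested was not computed, so this count is not read as particular to the family. The points share scaling and library, so these relations describe the 8 livers.

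The genes most alike to each member over 8 livers were taken by Pearson r, as a description with no test. They were picked as the highest among 14629 genes tested, and every listed r was at least 0.939. Whether such genes share a function with the member was not tested. Elovl5 was most like Eml3, Slc16a1 and Hsd3b7, with r between 0.986 and 0.990. Slc16a1 encodes a monocarboxylate transporter that carries ketone bodies, and Hsd3b7 an enzyme of bile acid synthesis. Fads1 was most like Nos3, Maff and Ropn1l (0.974 to 0.976), and Fads2 most like Lrrfip2, Edc3 and Rapgef1 (0.974 to 0.985). Elovl2 was closest to Fam160a1, Nlk and Arhgap29 (0.960 to 0.969), and Elovl3 to Zkscan8, Ap5m1 and Strbp (0.981 to 0.994). Elovl1 was closest to Ttyh2, Ppp1r16a and Dhrs11 (0.939 to 0.979), and Fads3 to Gfpt2, Itpripl2 and Birc3 (0.946 to 0.954).

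Genes around the route were read from lists, in which no gene passed adjustment for genotype or series. Among 6 tested elongases and desaturases outside the 7, Scd1, which makes oleic acid from stearic acid, was at 633 ± 383 CPM in SA/SA and 1691 ± 1078 CPM in WT (SD, n = 4), a log2 difference of -1.42 (edgeR adjusted p = 0.993). Of these 6 genes, 1 (Scd1) had an unadjusted genotype p under 0.05, against 3.40% of all genes. Fads6 had the most positive value of that list, 0.082. Elovl6, chosen after its values were seen, was 0.064 by genotype and 0.67 by series (edgeR adjusted p = 0.0678), on the same side as Elovl1. Elovl4, Scd3, Scd4 and Degs2 had too few counts to be tested.

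In the later steps of the elongation cycle, 0 of 6 genes had an unadjusted genotype p under 0.05 (3.40% of all genes did), and values ran from -0.19 in Hsd17b12, the ketoacyl reductase, to 0.058 in Hacd3, a dehydratase. The 4 genes that supply electrons to desaturases ran from -0.10 in Cyb5r3 to 0.19 in Cyb5b by genotype. By series Cyb5r3 gave 0.53 (SE 0.11, edgeR adjusted p = 0.147) and Cyb5b 0.55 (SE 0.091, edgeR adjusted p = 0.0788). Both had no overlap between the series and were higher in high-number livers, against 6.85% of all genes without overlap. Cyb5a (0.18) and Cyb5r1 (0.045) overlapped between the series. Of 7 tested genes for activation and transfer to phospholipid, Acsl4, which prefers arachidonic acid, was highest in SA/SA at 0.49 (edgeR adjusted p = 0.993) and Mboat7 lowest at -0.17. Acsl4 was the 1 of these 7 with an unadjusted genotype p under 0.05, against 3.40% of all genes. Of 10 peroxisomal chain-shortening genes, 0 had an unadjusted genotype p under 0.05 by edgeR, against the same 3.40% of all genes, and the list median was -0.11.

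Of the lists for regulators, the 10 lipogenic targets had a median genotype difference of 0.017, with Pnpla3 lowest at -0.52 (SE 0.51). Thrsp was highest, at 43.2 ± 43.1 CPM in SA/SA against 21.5 ± 13.8 CPM in WT (SD, n = 4). By genotype 0 of 10 had an unadjusted p under 0.05. Their series median was 0.29, with 5 genes higher and 1 lower at an unadjusted p under 0.05. Over all genes tested, such a p was found for 3.40% by genotype and 12.8% by series, beside which the counts of these lists are given. All 16 sterol synthesis genes were on the SA/SA side (median 1.01, 7 at an unadjusted p under 0.05), from Hmgcs1 at 0.46 to Sqle at 1.80, and their series median was 1.30, with 15 at an unadjusted p under 0.05. The 11 fasting PPARa targets had a median of 0.024 by genotype and -0.36 by series, with Plin5 at 0.67 (SE 0.24) and Pdk4 at -0.44 (SE 0.58) by genotype. Of the 11, 1 (Plin5) had an unadjusted p under 0.05 by genotype. By series 0 were higher, and 4 were lower at such a p. The 14 clock genes ran from -0.33 (SE 0.96) in Npas2 to 1.70 (SE 1.25) in Ciart by genotype. Of the 14, 0 had an unadjusted p under 0.05 by genotype and 13 had one by series, 9 higher and 4 lower. Beside these, the 7 genes had a genotype median of -0.083 and a series median of 0.060, with 3 higher and 2 lower. Whether any list stands apart from other genes was not tested.

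**Figure D5:**
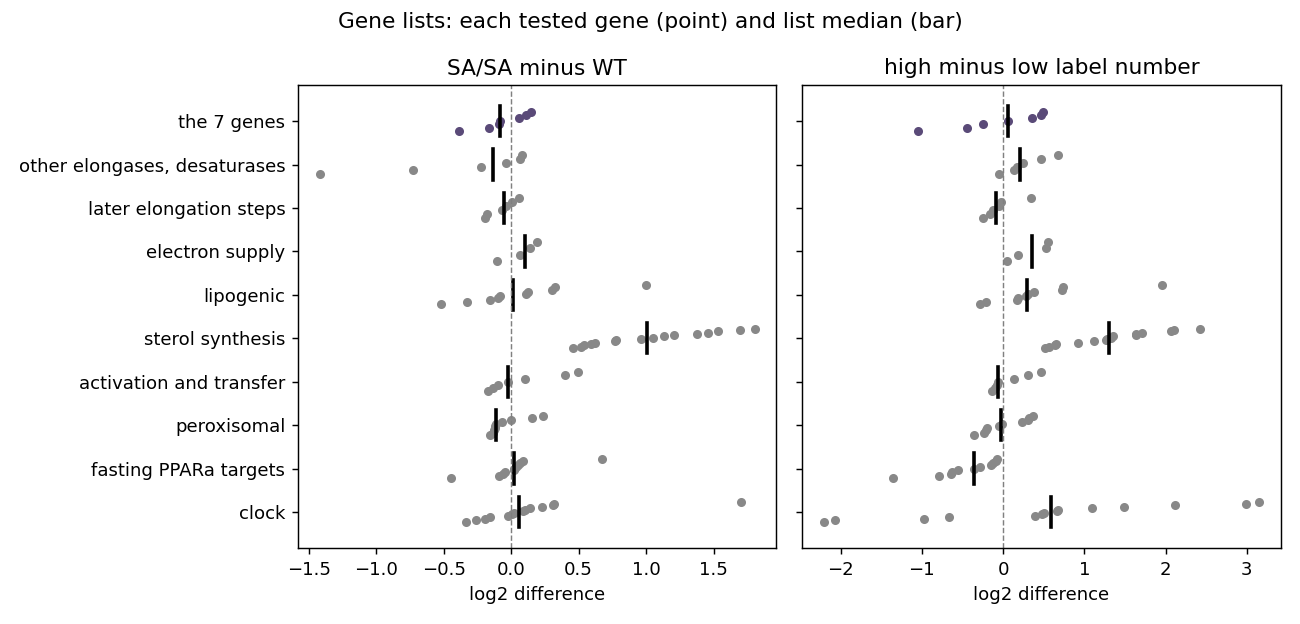
Log2 differences of each tested gene (points) and the list median (bars) for the 7 genes and 9 further lists, SA/SA minus WT on the left and high minus low label number on the right. The 7 genes centre near 0 on both sides, with points on either side in the right panel, while the sterol list has medians of 1.01 and 1.30.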

How the data were processed

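Stranded mRNA libraries of 4 WT and 4 SA/SA livers, 1 per mouse, were sequenced. The deposited values are estimated counts that the authors made with salmon, corrected for average transcript length but not for library size. The salmon version and strand setting are not given in the sources used here. Reads that fit several transcripts were divided by salmon's model, and length scaling can move a gene whose isoform use differs. The submitters' processing notes also name STAR, DESeq2 and GRCm38. Counts were rounded to whole numbers, filtered with filterByExpr (14629 of 45706 genes) and compared by edgeR's quasi-likelihood test (version 4.0.16, R 4.3.3) on TMM-scaled libraries, adjusting by Benjamini-Hochberg over all genes tested. SEs come from the F statistic. A prior count of 2 was added for log2 CPM. The label-number series was compared over 8 livers by the same test with genotype in the model, while the main genotype fit held genotype alone. The interaction was fitted with genotype and series. Ratios were taken on the log2 scale from the estimated counts of a liver, with no prior count, and correlations used log2 CPM. Both were tested by two-sided exact permutation. Alternatives were DESeq2 1.42.0, limma-voom 3.58.1, other scalings, filters, blocks and leaving out each liver. The fits were tested on simulated counts. Named genes were the 7 members, the most positive and most negative gene of each list by genotype, any list gene whose genotypes did not overlap (there was none), and the 3 genes most alike to each member, leaving out Gm and Rik names. The extremes of the peroxisomal list are not reported here. Members and lists were chosen with earlier results of these data known. Promoters are from RefSeq (GRCm38.p6), which matched 5 of 7 genes. Windows for Fads2 and the second starts of Elovl1 and Elovl2 lie within the annotated genes and are not printed.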

Additional observations from a re-analysis of the deposited data

Results flagged for a closer look

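Fads2 in WT liver 2 was at 474 CPM, far from the other 3 WT livers (284 to 306 CPM) by Dixon's test. Of 20 groups of 4 livers searched, this was the 1 group with such a value, and chance gives about 1. Fads1 was also highest among WT livers there, at 540.0 CPM. The same liver had 85.3 CPM of cholangiocyte markers (next highest 51.2 CPM) and 29.1 CPM of pancreatic acinar markers (next highest 6.43 CPM), and their part in the value was not tested. Without this liver the genotype log2 difference of Fads2 was 0.32.

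The genotype difference of Elovl5 differed between the label-number series by -0.55 on the log2 scale (edgeR adjusted p = 0.415), and it did not pass adjustment. It ranged from -0.69 to -0.40 when each liver was left out in turn. Each such fit leaves a single liver in a group of genotype and series, so the range describes the estimate and not its support.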

How the results depend on the processing

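None of the 7 genes was called for genotype under any of the 17 alternatives. DESeq2 called 6 genes in all for genotype. Leaving out 1 liver gave genotype log2 ranges of -0.70 to 0.040 for Elovl3, -0.041 to 0.17 for Elovl1 and -0.21 to 0.062 for Elovl5, so their signs rest on single livers. The ranges were 0.029 to 0.34 for Fads1, 0.0017 to 0.32 for Fads2, -0.27 to -0.040 for Elovl2 and -0.15 to -0.013 for Fads3. For the series, DESeq2 called 408 genes and the fit with no filter beyond 1 count called 514, each with 2 of the 7 (Elovl3 at -1.06 and -1.06, Fads1 at 0.49 and 0.48). Leaving out livers gave 0 to 111 genes and 0 to 1 of the 7, with 111 and Fads2 (0.61) without WT liver 3. The series range was 0.32 to 0.61 for Fads2 and -0.0022 to 0.17 for Fads3, and Fads3 was -0.0069 with library size alone. For the interaction, DESeq2 called 285 genes and leaving out livers gave 0 to 40, with 40 without WT liver 4. Interaction ranges were -0.19 to 0.34 for Fads1 (-0.088 with library size alone), -0.13 to 0.61 for Fads2, -0.24 to 0.16 for Elovl1 and -0.45 to 0.021 for Elovl2. Ratio ranges were -0.096 to 0.019 for Fads2 over Fads1, -0.15 to 0.042 for Elovl2 over Elovl5 and -0.84 (without SA/SA liver 4) to -0.16 (without WT liver 1) for Elovl3 over Elovl1. Except where the sample or filter itself changed, the cause was not tested. Same-numbered livers of the genotypes correlated at 0.056, 0.17, -0.11 and 0.13, and differently numbered livers at -0.19 to 0.14. Whether replicate numbers pair the livers was not tested. With a replicate block 0 genes were called for genotype. Some correlations passed adjustment under other settings, such as Fads1 with Fads2 centred within genotype (adjusted permutation p = 0.0391). With 4 livers per group the 95% intervals still allow genotype differences of 0.386-fold to 1.52-fold for Elovl3 and 0.697-fold to 1.28-fold for Elovl5.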
